A study of Rattus norvegicus with 6 samples.

Results

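Complement components and regulators were examined in primary vascular smooth muscle cells (VSMCs) of rat thoracic aorta. The 9 genes, given by symbol, were C3, C1s, C1r, Cfb, Cfd, Serping1, Cd55, C5ar1 and Cfi. Of these, 6 were listed among the 13526 genes of the deposited table and 3, Cfd, C5ar1 and Cfi, were not listed under these symbols, which does not show that they were not expressed. The VSMCs were wild type and all 6 samples were cultured in osteogenic media (OM), made with 10 mM β-GP plus CaCl2 at 3.5 mM and used to make the cells calcify. In the OM plus EMPA group (n = 3) the medium also held empagliflozin at 1 μM, a drug that blocks the glucose transporter SGLT2, and in the OM group (n = 3) it did not. The sample labels give 5 days of treatment, the study's figure legend gives a shorter time, and the titles of the samples write Pi for the medium. In the study Pi names a separate calcifying medium with inorganic phosphate. The samples' protocol and the study's figure legend give OM, which was followed here. The cells were grown from the aortic media of male rats after the adventitia and intima had been stripped off and had been passaged several times. The sources do not tell whether the samples within a group were separate cultures or animals. Each p-value therefore rests on the spread between these samples alone, and this spread may be technical.

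Complement is a cascade of plasma and tissue proteins that marks cells and particles for removal. In the classical pathway the proteases C1r and C1s are activated within the C1 complex, and C1s then cleaves C4 and C2. All routes meet at C3, whose cleavage is amplified by the alternative pathway through factor B (Cfb) and factor D (Cfd), and the cascade is held back by soluble inhibitors such as C1 inhibitor (Serping1) and factor I (Cfi) and by membrane proteins such as decay-accelerating factor (Cd55). The liver makes most plasma complement, and mesenchymal cells, among them smooth muscle cells and fibroblasts, also express several components.

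Levels are in TPM, a transcript abundance that allows for transcript length and adds up to almost the same total in every library, so genes can be compared by level but the depth behind each value is unknown. The groups were tested by limma on log2(TPM + 1), using the 12564 genes that averaged 1 TPM or more, and genes with a Benjamini-Hochberg adjusted p of at most 0.05 are said to have risen or fallen. The median log2 fold change of all tested genes was -0.05. Mitochondrially encoded transcripts, which bear on how the other genes are scaled, made up 8.0 to 9.69% of TPM in the OM libraries and 10.3 to 10.9% with empagliflozin.

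With empagliflozin, transcripts of the Cfb locus, a row that holds C2 as well as factor B, and of C1 inhibitor (Serping1) fell, and none of the 6 listed genes rose. The Cfb locus was 1.40-fold higher in the OM group than in the OM plus EMPA group, and Serping1 was 1.24-fold higher. C3 and Cd55 had the opposite direction, with every OM plus EMPA library above every OM library, and did not pass the test. C1s and C1r, the most abundant of the 6, were 1.10-fold and 1.06-fold higher in the OM group and did not pass the test either. Of the 6 genes, 2 fell and 0 rose, while 4.86% of all tested genes fell, 2.06% rose and 6.92% did either. Over all tested genes 259 rose and 611 fell, against 394 and 380 under median-ratio scaling, where Cd55 rose and only the Cfb locus fell among the 6. By unadjusted p, 5 of the 6 were under 0.05, against 24.1% of all tested genes. The genes were chosen with earlier results of these data known, so such shares do not test them as a set. The groups did not overlap for 5 of the 6, of which 2 were higher and 3 lower, where 30.4% of all tested genes did not overlap, with 7.85% of all tested genes higher and 22.5% lower. The median log2 fold change of the 6 was -0.12.

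The 6 genes were all expressed at high levels. In the OM group their mean levels were above those of 88.0% to 99.0% of tested genes, and together they made up 0.345 to 0.398% of TPM in a library. By mean TPM in the OM group the order was C1s, C1r, Serping1, C3, the Cfb locus and Cd55. The OM libraries did not overlap between neighbours in that order, except that Serping1 (597.7 to 685 TPM) and C3 (548 to 654 TPM) overlapped. In the OM plus EMPA group C3 stood above Serping1 without overlap, at 672 to 761 TPM against 501 to 561 TPM, and the other genes kept their places.

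**Figure D1:**
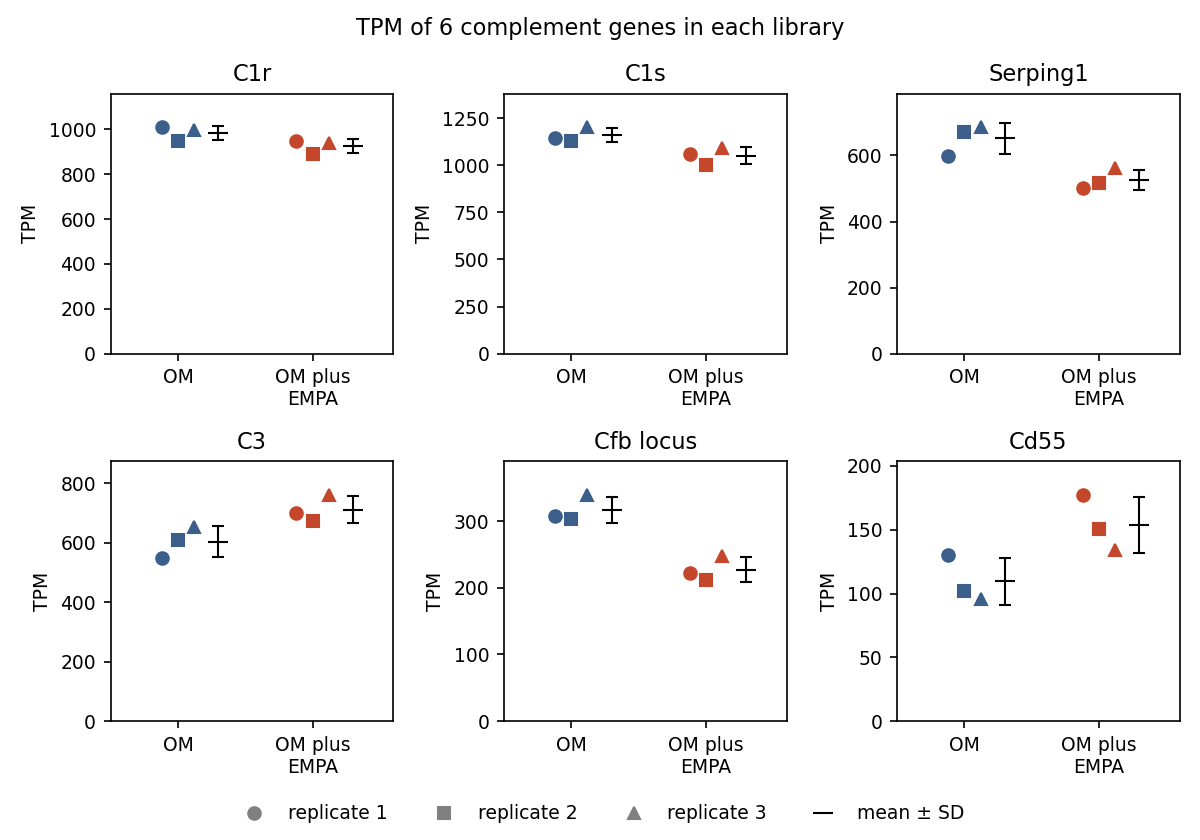
TPM of the 6 listed complement genes in each library, with OM in blue and OM plus EMPA in red, a symbol for each replicate number, and the mean ± SD (n = 3) as a black bar. The OM plus EMPA libraries lie below the OM libraries for the Cfb locus (211 to 248 against 303 to 339 TPM) and Serping1, above them for C3 and Cd55, and overlap with them only for C1r.

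C3, the component that all pathways activate, was at 699.9, 672 and 761 TPM in OM plus EMPA replicates 1, 2 and 3. In OM replicates 1, 2 and 3 it was at 548, 609.6 and 654 TPM. All 3 OM plus EMPA libraries were above all 3 OM libraries, and the gap between the groups, from 654 to 672 TPM, was smaller than the spread within either. The means were 711 ± 45.1 TPM (SD, n = 3) and 604 ± 53.2 TPM (SD, n = 3). The log2 fold change was 0.24 (SE 0.07, 95% CI 0.07 to 0.41), with an unadjusted p of 0.0132 and an adjusted p of 0.103 from limma, and C3 passed the test in no fit other than the one with the replicate number as a block. C3 lies on chromosome 9 from 2087437 to 2114429, on the minus strand, in the coordinates of the authors' table, and 3 transcripts were counted under it. The build of these coordinates is not named in the sources used here.

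The row named Cfb carries factor B, the protease that pairs with C3b to form the alternative pathway convertase. It was at 222, 211 and 248 TPM in OM plus EMPA replicates 1, 2 and 3. In OM replicates 1, 2 and 3 it was at 308, 303 and 339 TPM. The groups did not overlap, and the gap between them was wider than the range of either group. The OM group had a mean of 317 ± 19.5 TPM (SD, n = 3) and the OM plus EMPA group of 227 ± 18.8 TPM (SD, n = 3). The locus fell by 0.48 on the log2 scale (SE 0.07, 95% CI -0.64 to -0.32, adjusted p = 0.00931 from limma), and its adjusted p from limma was 0.00981 to 0.0378 in the 6 fits that each left out 1 library. In the table it spans 36651 bases of the plus strand of chromosome 20, from 3939855 to 3976505, with 6 transcripts, and its ortholog annotation names both complement component 2 and factor B. C2, which encodes the homologous protease of the classical pathway, has no row of its own and is the neighbour of Cfb in the RefSeq annotation of assembly GRCr8. Reads of C2 and Cfb can therefore not be told apart in this row, and the values are those of the locus. The row also overlaps part of Ehmt2, which lies on the minus strand and had a mean of 41.8 TPM in the OM group.

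Because both genes are read in the same library, the ratio of C3 to the Cfb locus does not depend on how the libraries are scaled. It was 3.15, 3.18 and 3.07 in OM plus EMPA replicates 1, 2 and 3. In OM replicates 1, 2 and 3 it was 1.78, 2.01 and 1.93. The ratio was thus higher in every library with empagliflozin, with means of 3.13 ± 0.0584 (SD, n = 3) and 1.91 ± 0.118 (SD, n = 3), a 1.64-fold difference. An exact two-sided permutation test gave p = 0.1, the smallest that 3 libraries against 3 can give, and 0.125 when adjusted over the 5 sums and ratios tested. This ratio was formed after the opposite directions of C3 and the Cfb locus had been seen. As neither overlapped between the groups, the separation of the ratio and its p were bound to follow and add no evidence. The summed level of the 6 genes was 3443 to 3734 TPM with empagliflozin and 3739 to 3970.2 TPM in the OM group (exact two-sided permutation test, p = 0.1, adjusted 0.125). The groups were only narrowly apart, and unlike the ratio this sum depends on how the libraries are scaled.

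C1r and C1s, the paired proteases of the C1 complex, were at about the level of each other in every library. C1s was at 1058, 1002 and 1092 TPM in OM plus EMPA replicates 1, 2 and 3 and at 1146, 1131 and 1200.3 TPM in OM replicates 1, 2 and 3. C1r was at 948, 891 and 938 TPM in the OM plus EMPA libraries and at 1009, 948 and 996 TPM in the OM libraries, in the same order. The groups of C1s did not overlap, whereas those of C1r touched at 948 TPM. The log2 fold change was -0.14 for C1s (SE 0.05, 95% CI -0.26 to -0.03, adjusted p = 0.139 from limma) and -0.09 for C1r (SE 0.05, 95% CI -0.20 to 0.02, adjusted p = 0.296 from limma), so neither passed the test. The ratio of C1s to C1r was 1.13 ± 0.0253 (SD, n = 3) with empagliflozin and 1.18 ± 0.0369 (SD, n = 3) without it (exact two-sided permutation test, p = 0.2), and the groups overlapped.

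Both genes lie on chromosome 4. C1r spans 157412692 to 157423484 on the plus strand, and its 10793 bases lie wholly within the assembled C1s locus, which runs over 383353 bases of the minus strand from 157059049 to 157442401 and also covers Pex5 and C1rl. The reference gene of C1s within it is 12187 bases long and starts at 157430117, beyond the end of C1r. Whether the counting used strand is not stated in these sources, so reads of the overlapping stretch may not be told apart. Pex5 lies on the same strand as C1s, so strand would not separate its reads.

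Serping1 encodes C1 inhibitor, the serpin that inactivates C1r and C1s. It was at 501, 516 and 561 TPM in OM plus EMPA replicates 1, 2 and 3. In OM replicates 1, 2 and 3 it was at 598, 672 and 685 TPM. The highest library with empagliflozin was below the lowest library without it. Serping1 fell by 0.31 on the log2 scale (SE 0.07, 95% CI -0.46 to -0.15, adjusted p = 0.0361 from limma), from 652 ± 47.1 TPM (SD, n = 3) to 526 ± 31.3 TPM (SD, n = 3). The call was lost when replicate 1 or 2 of the OM plus EMPA group was left out (adjusted p = 0.104 and 0.111 from limma), when replicate 2 or 3 of the OM group was left out (adjusted p = 0.0926 and 0.115 from limma). It was also lost under median-ratio scaling of the libraries, without the mitochondrially encoded genes and without the variance trend (adjusted p = 0.0828, 0.0592 and 0.0830 from limma). The log2 fold change was -0.37 to -0.27 without any 1 library. Summed TPM of C1r and C1s per TPM of Serping1 were 3.62 to 4.01 with empagliflozin and 3.09 to 3.61 without it. The groups did not overlap but were only narrowly apart (exact two-sided permutation test, p = 0.1, adjusted 0.125). The ratio contains Serping1, which fell, so it adds no separate evidence. Serping1 lies on chromosome 3 from 69842426 to 69852690, on the minus strand.

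Cd55, the membrane protein that speeds the decay of C3 convertases on the cell's own surface, had the largest difference toward higher levels among the 6. It was at 177, 151 and 134 TPM in OM plus EMPA replicates 1, 2 and 3. In OM replicates 1, 2 and 3 it was at 130.2, 102 and 95.8 TPM. The groups did not overlap, although OM plus EMPA replicate 3 and OM replicate 1 were only 134 against 130.2 TPM. The means were 154 ± 21.8 TPM (SD, n = 3) and 109 ± 18.3 TPM (SD, n = 3), which is 1.41-fold. The log2 fold change of 0.49 had a wider error than those of the other genes (SE 0.13, 95% CI 0.19 to 0.80) and did not pass the test (unadjusted p = 0.00595, adjusted p = 0.0672 from limma). In fits without the replicate number as a block, it passed the threshold only under median-ratio scaling (adjusted p = 0.0475 from limma) and without OM replicate 1 (adjusted p = 0.0393 from limma). Within each group, Cd55 was highest in the library in which Serping1 was lowest. The ratio of Cd55 to Serping1 was 0.239 to 0.354 with empagliflozin and 0.140 to 0.218 in the OM group (exact two-sided permutation test, p = 0.1, adjusted 0.125). Cd55 was higher and Serping1 lower without overlap, so the separation of their ratio was fixed beforehand and adds no evidence. Cd55 lies on chromosome 13 from 41857395 to 41886096, on the minus strand.

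**Figure D2:**
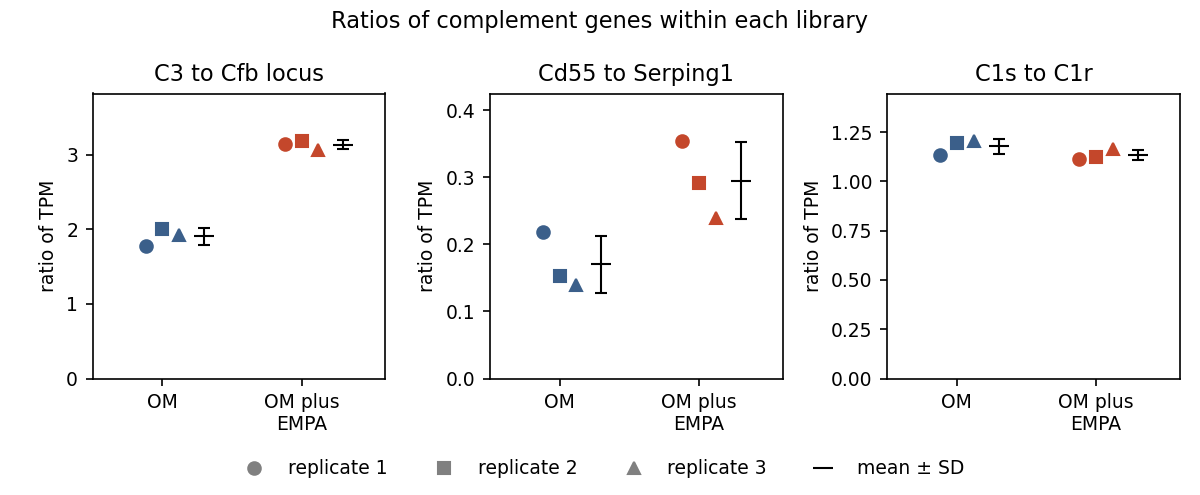
Ratios of TPM of 2 genes within each library, from left to right C3 to the Cfb locus, Cd55 to Serping1 and C1s to C1r, with OM in blue, OM plus EMPA in red and the mean ± SD (n = 3) as a black bar. The ratio of C3 to the Cfb locus lies at 3.07 to 3.18 with empagliflozin and at 1.78 to 2.01 without it, while the ratios of C1s to C1r overlap. For C3 to the Cfb locus and for Cd55 to Serping1, the separation follows from the opposite directions of genes that did not overlap.

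Promoter sequences of C3 and Cd55 are shown because these are the 2 genes whose libraries lay higher with empagliflozin without overlap. They are the 250 bases before the gene start from RefSeq, assembly GRCr8, on the strand of the gene. The promoter table matched 5 of the 9 genes (C3, C1r, Cd55, Cfd and Cfi) and held none for C1s, Cfb, Serping1 and C5ar1. C3 is taken from chr9:2201340-2201589 and Cd55 from chr13:44438102-44438351, both on the minus strand. Capitals mark matches on either strand to GGGANNNNCC, a loose form of the κB site of NF-κB, and to TTGCNNAA, a loose form of the C/EBP site.
C3: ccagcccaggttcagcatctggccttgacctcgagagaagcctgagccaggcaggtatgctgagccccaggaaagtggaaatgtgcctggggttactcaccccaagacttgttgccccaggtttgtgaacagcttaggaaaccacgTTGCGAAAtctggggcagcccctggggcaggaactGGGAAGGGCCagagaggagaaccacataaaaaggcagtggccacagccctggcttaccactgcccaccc
Cd55: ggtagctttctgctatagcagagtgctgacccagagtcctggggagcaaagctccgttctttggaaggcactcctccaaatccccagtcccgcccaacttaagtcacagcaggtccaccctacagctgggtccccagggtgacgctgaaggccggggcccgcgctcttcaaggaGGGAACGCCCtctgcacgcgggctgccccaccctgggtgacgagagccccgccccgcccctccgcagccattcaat
The C3 promoter held a C/EBP-like match from 104 to 97 bases before the start and a κB-like match from 69 to 60 bases before it, and the Cd55 promoter held a κB-like match from 76 to 67 bases before it. C1r had a C/EBP-like match from 83 to 76 bases before its start. Cfd and Cfi, which have no values here, had no match. Among all 33469 promoters of this length 16.4% held the κB-like letters and 9.22% the C/EBP-like letters. The letters GAAANNGAAA, a core of interferon-stimulated response elements, and TTCNNNGAA, a core of STAT-binding sites, were in 3.41% and 7.67% of promoters and in none of these 5. No motif overlapped another. The matches describe the letters in these windows only.

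The other genes of the pathway were taken from a list of 49 symbols that includes the 9. Of these, 22 were listed and 20 tested, among which 1 rose (Clu), 2 fell (the Cfb locus and Serping1) and 17 did not pass the test. The median log2 fold change of the 20 was -0.09. Leaving the 6 genes aside, 1 of 14 tested genes rose and 0 fell from limma, and 5 of the 14 had an unadjusted p under 0.05, while of all tested genes 2.06% rose, 4.86% fell and 24.1% had such a p.

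Clu encodes clusterin, a secreted chaperone that also blocks the terminal complement complex. It was at 504, 458 and 502 TPM in OM plus EMPA replicates 1, 2 and 3 and at 405, 422 and 421 TPM in OM replicates 1, 2 and 3. The groups did not overlap, and Clu rose, with a log2 fold change of 0.23 (SE 0.05, 95% CI 0.11 to 0.34, adjusted p = 0.0361 from limma). The call was lost in 5 of the 6 fits that left out 1 library, with an adjusted p from limma of 0.105 without OM plus EMPA replicate 1, 0.104 without OM plus EMPA replicate 3, and 0.106, 0.0715 and 0.0972 without OM replicates 1, 2 and 3. It was also lost without the variance trend (adjusted p = 0.0901 from limma).

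Among the initiators of the classical and lectin pathways, Colec11, a collectin that recognises sugars, was more abundant than C1s, at 1484 to 1661 TPM with empagliflozin and 1451 to 1480 TPM without it (log2 fold change 0.08, adjusted p = 0.438 from limma). Masp1, a protease of the lectin pathway, was at 38.7 to 52.6 TPM against 27.4 to 38.2 TPM (log2 fold change 0.38, 95% CI 0.03 to 0.72, adjusted p = 0.174 from limma). C4a, which encodes a substrate of C1s, was at 18.5 to 18.8 TPM against 20.3 to 23.3 TPM (log2 fold change -0.18, 95% CI -0.34 to -0.03, adjusted p = 0.146 from limma), and C4b, a near-identical gene whose reads the counting could split with C4a, was at 1.98 to 2.27 TPM against 2.04 to 2.77 TPM. None of the 7 tested genes of this class passed the test. C1qa, C1qb and C1qc, the chains of the recognition protein C1q, were not listed, which does not show that they were not expressed.

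Few genes of the late cascade were listed. Of 7 genes of the terminal pathway only C6 and C8g were, both at low levels, with C6 at 2.55 to 3.93 TPM against 1.65 to 2.38 TPM (log2 fold change 0.40, 95% CI 0.02 to 0.78, adjusted p = 0.189 from limma). Properdin (Cfp), which stabilises the alternative convertase, was at 1.42 to 2.48 TPM against 1.94 to 2.39 TPM. Of the regulators, Cr1l, the rodent membrane regulator Crry, was at 144 ± 1.81 TPM (SD, n = 3) against 143 ± 7.45 TPM (SD, n = 3), with a log2 fold change between -0.09 and 0.12 (95% CI). Cd59, which blocks assembly of the membrane attack complex, was at 31.6 ± 4.34 TPM (SD, n = 3) against 37.7 ± 3.90 TPM (SD, n = 3) and overlapped between the groups (log2 fold change -0.25, adjusted p = 0.207 from limma). Of the anaphylatoxin receptors, C5ar2 was at 2.83 to 3.82 TPM against 3.70 to 4.19 TPM (adjusted p = 0.44 from limma), and C3ar1, like C5ar1, was not listed.

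**Figure D3:**
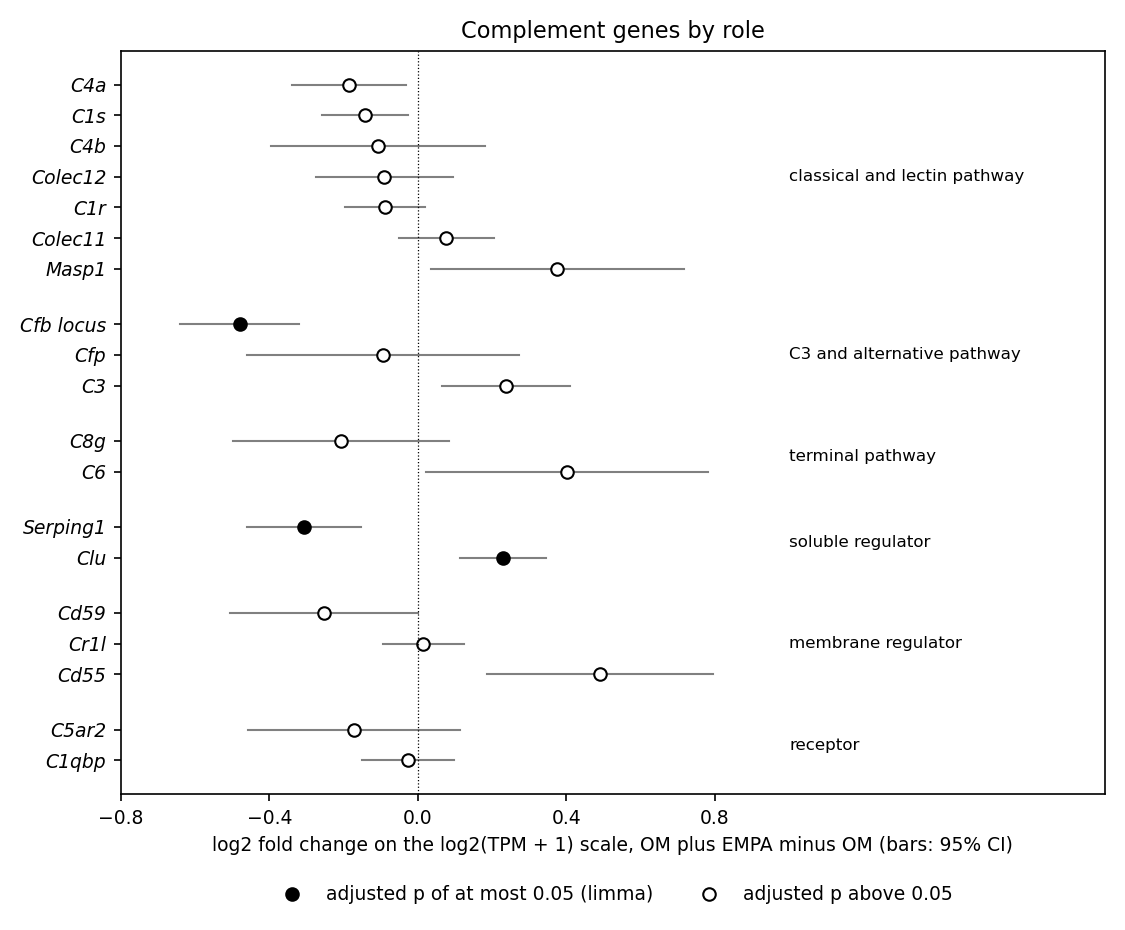
Difference between OM plus EMPA and OM, in log2(TPM + 1), for 19 of the 20 tested complement genes grouped by role, with 95% CI as bars. Filled points passed the limma threshold of an adjusted p of 0.05, and these are the Cfb locus at -0.48, Serping1 at -0.31 and Clu at 0.23, while the 16 open points did not pass it.

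The table's own KEGG annotation placed 32 listed genes in complement and coagulation cascades, of which 29 were tested, 2 rose and 5 fell, where 2.06% of all tested genes rose and 4.86% fell. The complement genes among those that changed were again Clu, the Cfb locus and Serping1. The other genes belong to coagulation, fibrinolysis and kinins.

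The genes with the profile most like that of each called gene were found by the Euclidean distance between log2(TPM + 1) values over the 6 libraries, each centred on its own mean. For the Cfb locus they were Ttc39b, RT1-CE14, a class I histocompatibility gene, and Boc, at distances of 0.0636, 0.0879 and 0.108 on the log2 scale. For Serping1 they were Gin1, Afdn and Ror2, at distances of 0.0695, 0.0706 and 0.0803. Ttc39b had a mean of 42.7 ± 2.55 TPM (SD, n = 3) in the OM group, against 30.6 ± 2.36 TPM (SD, n = 3) with empagliflozin. RT1-CE14 had a mean of 5.43 ± 0.215 TPM (SD, n = 3) in the OM group, against 3.49 ± 0.448 TPM (SD, n = 3) with empagliflozin. These genes were picked for likeness to a gene that fell, so their own lower levels are no further result.

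Summed levels of smooth muscle markers were higher with empagliflozin and those of fibroblast markers lower. Sums of macrophage and leukocyte markers and of endothelial markers overlapped between the groups. Of 10 smooth muscle markers 9 were listed, of which 6 rose and 0 fell, where 2.06% of all tested genes rose and 4.86% fell. The summed level of the 9 was 3773 to 4353 TPM with empagliflozin and 2807 to 3391 TPM without it. Those that rose passed the threshold in 1 to 5 of the 6 fits that left out 1 library. Of 8 fibroblast markers 6 were listed, of which Col14a1 rose and Dcn and Pdgfra fell, with a summed level of 4765 to 5515 TPM against 6163 to 6989 TPM. Dcn made up most of this sum, with means of 4113 TPM with empagliflozin and 5401 TPM without it. With 1 library left out, Dcn passed the threshold in 1 of 6 fits, Pdgfra in 0 and Col14a1 in 6. Of 13 macrophage and leukocyte markers 4 were listed, with a summed level of 508 to 567 TPM against 545 to 662 TPM. Lgals3 made up most of this sum, with means of 385 TPM with empagliflozin and 434 TPM without it. Cd68 fell by 0.83 on the log2 scale (adjusted p = 0.0378 from limma) and passed in 2 of the 6 fits without 1 library. The defining markers Ptprc, Csf1r, Adgre1, Aif1 and Tyrobp were not listed. Of 8 endothelial markers only Erg was listed, at 1.70 to 3.89 TPM in all libraries. In bulk samples fewer cells of a type and less RNA per cell cannot be told apart, and the part of these markers in the complement values was not tested.

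The direction of each of the 6 genes was the same in all 13 fits made, that is with all libraries, with 6 other settings of scaling, filter, pseudocount, replicate block or variance trend, and with each of the 6 libraries left out. Most of these fits could not have changed it. No filter, the block and no trend leave the log2 fold change as it was. For genes whose groups did not overlap, leaving out a library or changing the pseudocount cannot reverse the direction. For these genes only the changes of scaling could have done so. Only the Cfb locus passed the threshold in every fit. C1r and C1s passed it in none.

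**Figure D4:**
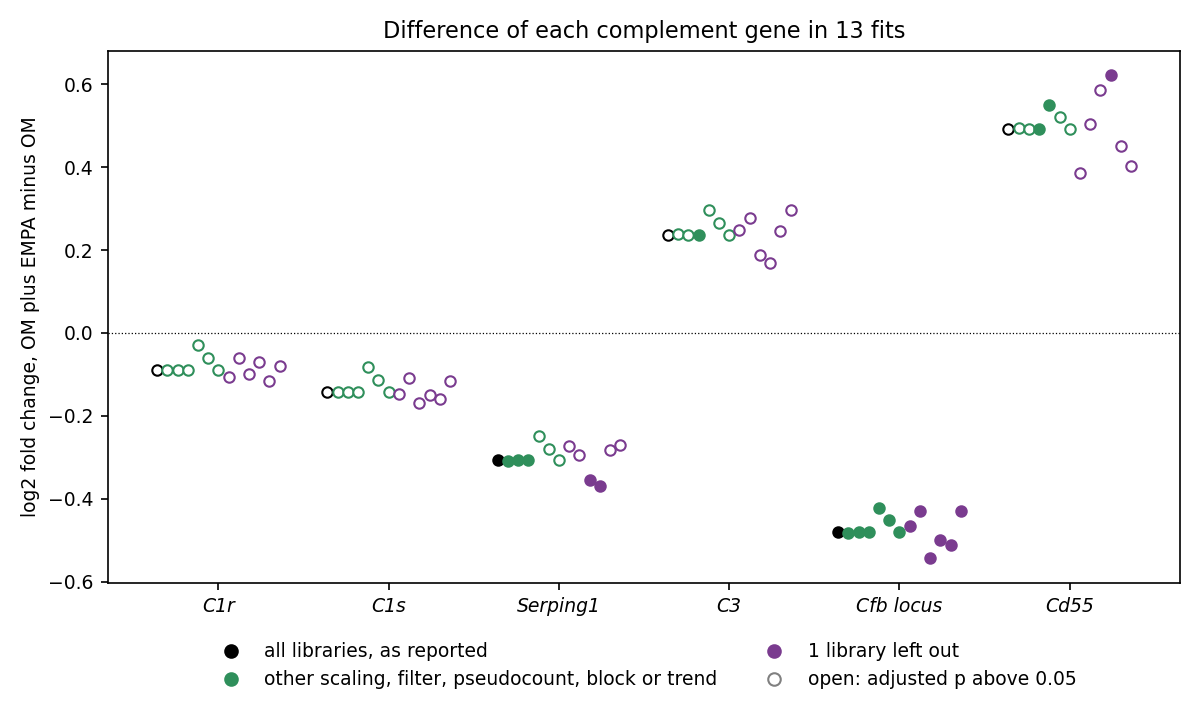
Log2 fold change, OM plus EMPA minus OM, of each of the 6 complement genes in 13 fits, with all libraries as reported in black, other settings in green and fits without 1 library in purple. Filled points passed the limma threshold, and the points of the Cfb locus, between -0.54 and -0.42, are all filled.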

How the data were processed

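RNA of 6 samples was sequenced by the authors as read pairs, 3 in OM with empagliflozin and 3 in OM alone. The authors deposited a table of TPM per gene and sample, and TPM keep no record of depth, so no precision by depth can be given. Tools named in the submitters' processing notes, without their roles, are HISAT2 2.0.5, RSEM, DESeq2 and fastp. No source used here names the genome build. The table also holds the authors' fold changes and p-values, which were not used, and a second table repeats a subset of its rows.

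The test was limma 3.58.1 in R 4.3.3 on log2(TPM + 1), with group as the only term, a mean-variance trend, a filter of a mean of 1 TPM, and 3.8 prior degrees of freedom beside 4 residual ones. Benjamini-Hochberg adjustment covered 12564 genes, at a threshold of 0.05, the threshold of the study's methods. The test was checked on simulated data. Fold changes on this scale understate those of low genes. The members, gene lists, motifs and tests were chosen with earlier results of these data known. Named genes are all members, the called genes of the pathway list and the 3 nearest profiles of each called member, and other genes of the pathway list were named after their values were seen, to describe its roles. Of the tested genes of the pathway list, 1 is counted but not reported here by name or value. Alternatives were a pseudocount of 0.1, no filter, the replicate number as a block, median-ratio scaling, TPM without the 16 mitochondrially encoded genes, no variance trend and each library left out. Tables and plots were made in Python 3.11.15 (scipy 1.17.1, matplotlib 3.10.9, pandas 2.3.3).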

Additional observations from a re-analysis of the deposited data

How the results depend on the processing

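Of the 6 complement genes, 0 rose and 2 fell as reported. With the replicate number as a block 2 rose (C3, adjusted p = 0.0309, and Cd55, adjusted p = 0.00163, both from limma) and the same 2 fell. Under median-ratio scaling 1 rose (Cd55) and 1 fell (the Cfb locus), and with TPM without mitochondrially encoded genes or without the variance trend 1 fell. With 1 library left out 0 to 1 rose and 1 to 2 fell, the Cfb locus each time. In the pathway list 1 rose and 2 fell as reported, 4 rose with the block, 2 rose and 1 fell under median-ratio scaling, 1 fell without mitochondrially encoded genes, 0 rose and 1 fell without the trend, and 0 to 1 rose and 1 to 2 fell with 1 library left out. Over all tested genes 259 rose and 611 fell as reported, 449 and 951 with the block, 394 and 380 under median-ratio scaling, 154 and 366 without the trend, and 80 to 216 and 245 to 438 with 1 library left out. A pseudocount of 0.1 and no filter changed none of the calls among the 6 genes.

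The block is not given as the result, because the labels do not say what a replicate number shares. The correlation of same-numbered samples' deviations from their group means was 0.0979, 0.162 and 0.0575 for numbers 1, 2 and 3. Each sample correlated best with its own number, a hint from the data and not from the design. Sequencing depth is unknown, so the limit it sets cannot be given.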
